A study of Mus musculus with 11 samples.

Results

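The 10 genes described here encode proteins that join cells to their neighbours: the classical cadherins Cdh1 and Cdh2, the epithelial adhesion molecule Epcam, the catenins Ctnnb1, Ctnna1 and Ctnnd1, and the non-clustered protocadherins Pcdh8, Pcdh15, Pcdh1 and Pcdh7. They were taken by gene symbol from a table of 23284 genes. Pcdh8 and Pcdh15 were selected on their measured fall with EGF in cells with control siRNA, so the values of that comparison are given here as a description and are not tested. Of the 10 genes, 9 had enough reads to be among the 13343 genes tested, and Pcdh7 did not.

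RNA was sequenced from 266-6, an established mouse pancreatic acinar line, and each group is made of this 1 line. Cells of all 4 groups were transfected with siRNA for 48 h, deprived of serum overnight and then exposed for 8 h to EGF or to its vehicle. The siArid1a_EGF group (n = 3) carried siRNAs against Arid1a at 25 nM and had EGF at 40 ng/ml, and the siArid1a group (n = 3) carried the same siRNAs and had 0.1% BSA. The siCtrl_EGF group (n = 3) carried the non-targeting siRNA NT5 and had EGF, and the siCtrl group (n = 2) carried NT5 and had BSA. Arid1a codes for ARID1A, a part of the SWI/SNF complex that moves nucleosomes, and EGF activates the EGF receptor. Depth was 11947581 to 14143225 counted reads in siArid1a_EGF, 10279763 to 15710575 in siArid1a, 13547278 to 16796787 in siCtrl_EGF and 14059719 to 19773007 in siCtrl. Levels are given in CPM, read counts scaled to a common library size. No label says that the replicates were separate cultures, so the spread that p-values measure may be technical. In RNA of whole cultures, fewer cells of a type and less RNA per cell cannot be told apart.

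Classical cadherins bind cadherins of the next cell through calcium-dependent contacts, and their tails hold beta-catenin and p120-catenin. Alpha-catenin links that complex to actin, and beta-catenin also acts in the nucleus in Wnt signalling. Acinar cells of the pancreas are polarised epithelial cells held together by E-cadherin, while N-cadherin is better known from neural and mesenchymal tissue. Protocadherins have cadherin repeats but lack the catenin-binding tail of classical cadherins.

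The siRNAs lowered their target. Arid1a stood at 145, 122 and 152 CPM in siArid1a_EGF and at 151, 157 and 127 CPM in siArid1a, against 308, 263 and 300.2 CPM in siCtrl_EGF and 292 and 399.9 CPM in siCtrl. Its log2 change was -1.06 ± 0.12 with EGF (SE, edgeR adjusted p = 2.85e-05) and -1.25 ± 0.13 without EGF (edgeR adjusted p = 2.36e-05). Of 13 acinar markers 12 were tested, and their summed level was 15935 to 17692 CPM in siArid1a_EGF, 17103 to 20456 CPM in siArid1a, 14785 to 15999 CPM in siCtrl_EGF and 16905 to 18903 CPM in siCtrl. Ctrb1 made up most of this sum, at 11278 to 14335 CPM over all libraries. Other acinar markers varied more or were scarce, such as Reg1 at 757 to 2227 CPM, Bhlha15 at 16.7 to 60.1 CPM and Prss1 at 0.512 to 5.71 CPM. Amy2a5, an amylase gene on that list, had no read in any library. Ins1, Ins2, Sst, Lum and Cd3e, which mark islet cells, fibroblasts and lymphocytes, had no read either. Some other genes on the islet and fibroblast lists were abundant, with Chga at 626 to 1158 CPM, Vim at 253 to 518 CPM and Pdgfrb at 269 to 321 CPM.

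The 9 genes measured did not move as 1 group. Pcdh8 and Pcdh15 were low in the EGF groups, and from the lowest to the highest library they differed 8.10-fold and 4.87-fold. The scarce Pcdh1 differed 5.49-fold by the same measure. Cdh1 was 1.92-fold higher with the Arid1a siRNAs in the presence of EGF and 1.91-fold higher in its absence. Cdh2 was higher with EGF and Ctnnd1 was lower with the Arid1a siRNAs. Ctnnb1 passed the test in 1 comparison, and Ctnna1 and Epcam in none of those tested.

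**Figure D1:**
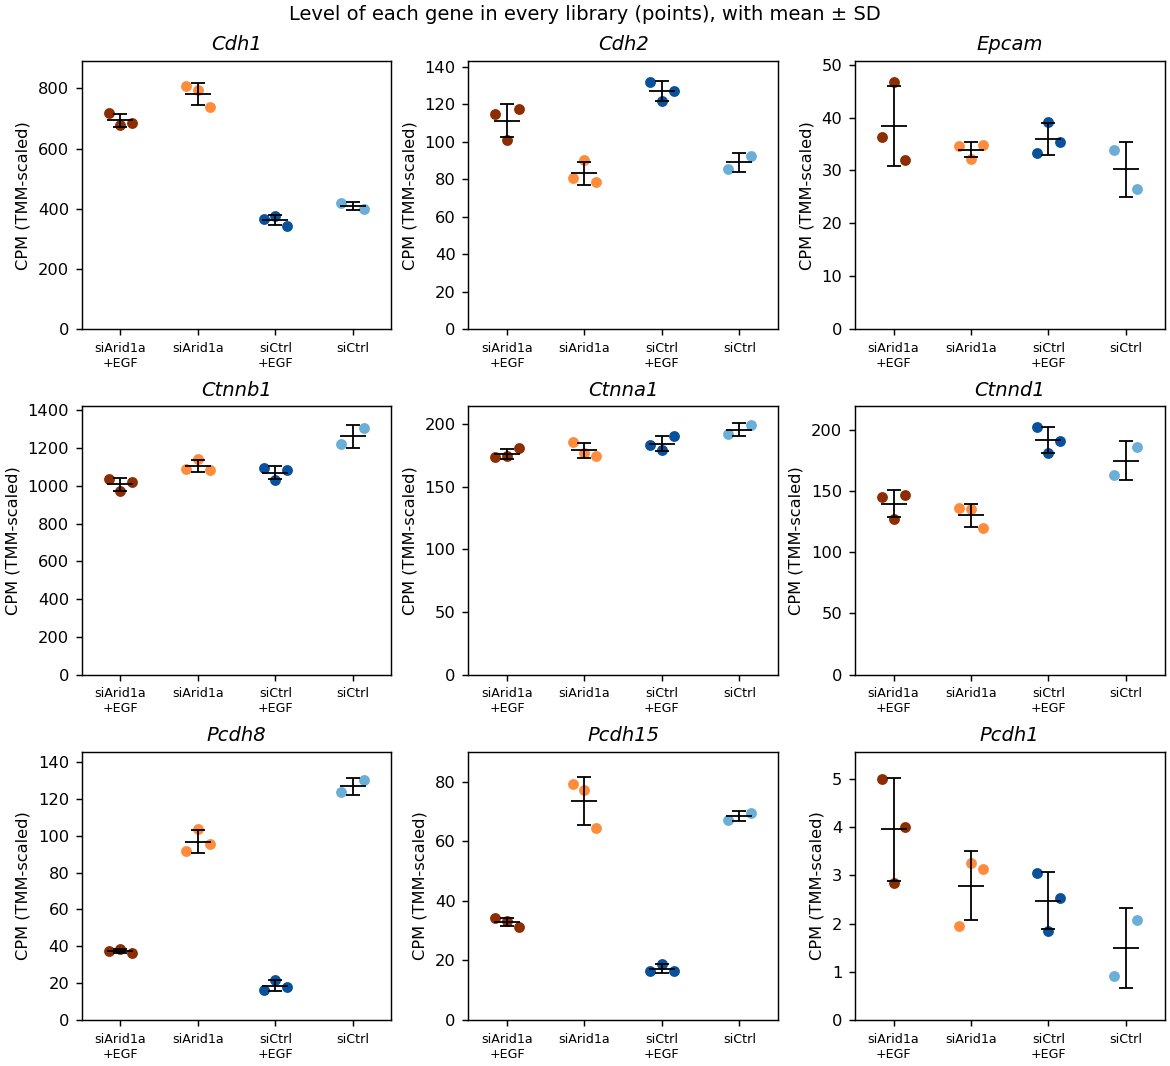
Level of the 9 measured genes in every library, in CPM with TMM-scaled library sizes (y axis, from 0), for siArid1a with EGF, siArid1a, siCtrl with EGF and siCtrl (x axis). Points are libraries and bars are the mean ± SD. Pcdh8 and Pcdh15 are low in both EGF groups, and Cdh1 is high in both Arid1a siRNA groups.

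The EGF response with Arid1a siRNAs compares none of the libraries that named Pcdh8 and Pcdh15. Its scaling and its estimate of spread do come from all 11 libraries, siCtrl and siCtrl_EGF included. In this response 23.4% of all genes passed the edgeR test (Benjamini-Hochberg adjusted p under 0.05), 13.0% as higher and 10.4% as lower. Of the 9 genes, 1 was called higher and 3 lower there, and 5 did not pass, with Pcdh8 and Pcdh15 among the 3. These 2 were selected for a fall with EGF, and of the 7 other genes 1 was higher, 1 was lower and 5 did not pass. Both Arid1a comparisons share their control libraries with the comparison that named Pcdh8 and Pcdh15, so these 2 genes are described there with no test, and counts are of the other 7. With the Arid1a siRNAs in the presence of EGF, where 46.9% of all genes were called (23.7% higher and 23.2% lower), 1 of the 7 was higher and 2 were lower, and 4 did not pass. Without EGF, where 38.9% were called (18.8% higher and 20.1% lower), 2 of the 7 were higher and 2 lower, and 3 did not pass. The median log2 change of the 9 genes was -0.02 for EGF with Arid1a siRNAs, 0.09 for the Arid1a siRNAs with EGF and -0.10 without EGF, beside -0.01, 0.00 and -0.01 over all genes.

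**Figure D2:**
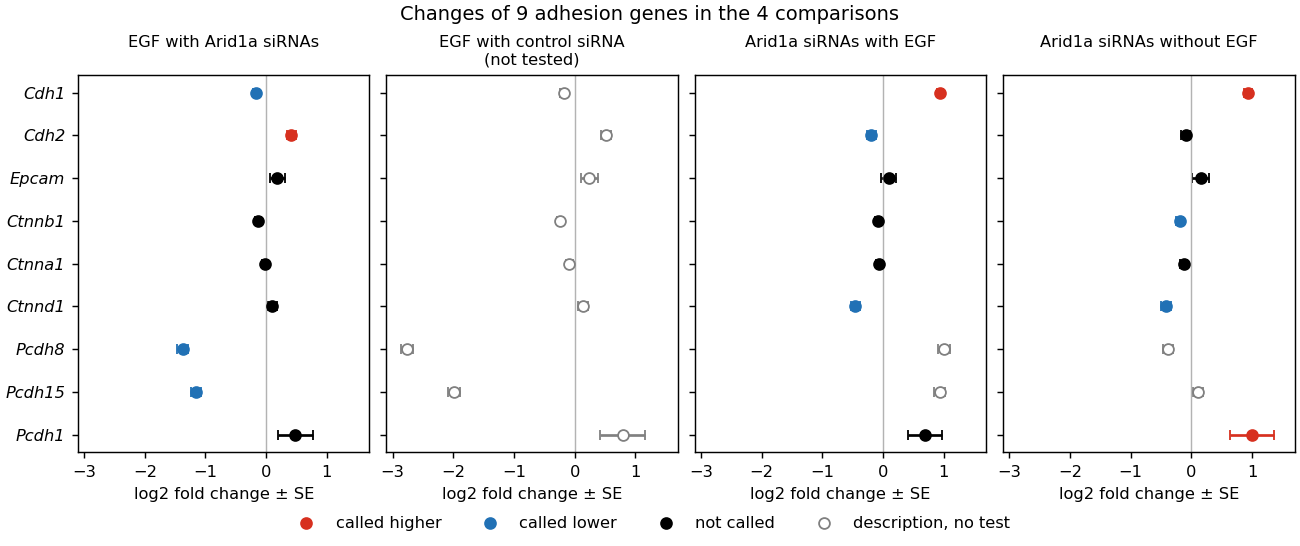
Log2 fold change ± SE (x axis) of each gene (y axis) for EGF with Arid1a siRNAs, EGF with control siRNA, Arid1a siRNAs with EGF and Arid1a siRNAs without EGF. Red and blue points passed the edgeR test as higher and lower, black points did not pass, and open points are given with no test. Pcdh8 stands at -1.38, -2.76, 1.0 and -0.39 in these 4 comparisons, and Cdh1 at -0.17, -0.18, 0.94 and 0.93.

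Pcdh8 encodes a protocadherin best known from neurons, where it takes part in synapse remodelling, and from the segmenting embryo. Pcdh15 encodes a protein of the tip links of inner ear hair cells and of photoreceptors. The 250 bases before the start of each gene are shown because these genes were low with EGF in the same groups. They are the RefSeq promoter sequences on GRCm38.p6, 5′ to 3′ on the strand of the gene, and the capitals mark the letters TATAAA in both and CACCTG in Pcdh15. Pcdh8 lies on the minus strand at chr14:79771313-79771562 and Pcdh15 on the plus strand at chr10:73821617-73821866.
Pcdh8: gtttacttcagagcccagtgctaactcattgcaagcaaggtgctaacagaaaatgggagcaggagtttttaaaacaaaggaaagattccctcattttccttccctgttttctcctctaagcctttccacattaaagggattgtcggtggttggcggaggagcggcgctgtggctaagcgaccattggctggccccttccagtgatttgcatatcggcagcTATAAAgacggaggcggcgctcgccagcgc
Pcdh15: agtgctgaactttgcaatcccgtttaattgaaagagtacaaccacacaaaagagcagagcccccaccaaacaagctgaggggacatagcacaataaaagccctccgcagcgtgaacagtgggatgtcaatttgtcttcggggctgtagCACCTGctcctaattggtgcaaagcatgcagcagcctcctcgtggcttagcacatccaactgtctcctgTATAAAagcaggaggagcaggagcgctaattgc

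The letters TATAAA, the core of a TATA box, begin 30 bases before the start of Pcdh8 and 33 bases before that of Pcdh15. This motif was searched after the sequences had been read. Among 32851 RefSeq promoter windows of the same length, 12.4% hold it on either strand, and 2.63% hold it on the strand of the gene within the last 50 bases. Counted on either strand and at any position, TATAAA also occurs in 1 window of Ctnnb1 and in 1 window of Ctnnd1. Another window of each of these genes lacks it, as do those of Pcdh7 and Epcam. Neither window holds TGANTCA, the motif of AP-1, or CCGGAA, a core of ETS sites, which occur on either strand in 6.75% and 12% of all windows. CACCTG, an E-box bound by Snail and Zeb factors, occurs once in the Pcdh15 window, not in that of Pcdh8, and in 17.2% of all windows. The share of G and C is 51.2% for Pcdh8 and 50.4% for Pcdh15, against a median of 52.4% over all windows. These matches describe letters only.

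Pcdh8 stood at 37.5, 38.5 and 36.1 CPM in siArid1a_EGF and at 91.7, 104 and 95.4 CPM in siArid1a. It stood at 16.1, 21.8 and 17.9 CPM in siCtrl_EGF, against 124 and 130.2 CPM in siCtrl. The 4 groups did not overlap, and their order was siCtrl highest, then siArid1a, then siArid1a_EGF, with siCtrl_EGF lowest. With Arid1a siRNAs, EGF lowered Pcdh8 2.60-fold (log2 -1.38 ± 0.09, edgeR adjusted p = 6.46e-08). With control siRNA the level was 6.79-fold lower with EGF (log2 -2.76 ± 0.10), which is part of how the gene was chosen.

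Between the siRNAs, the level of Pcdh8 was 2.0-fold higher with the Arid1a siRNAs in the presence of EGF (log2 1.0 ± 0.10) and 1.31-fold lower in its absence (log2 -0.39 ± 0.09). Neither value is tested, since the control libraries of both are those in which the gene was selected. The EGF responses differed by a log2 value of 1.39 ± 0.13, given with no test because it contains the comparison that named the gene. Leaving out each library in turn gave 1.29 to 1.52 for this difference.

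Pcdh15 stood at 34.2, 33.3 and 31.4 CPM in siArid1a_EGF and at 79.4, 77.1 and 64.5 CPM in siArid1a. It stood at 16.4, 18.9 and 16.3 CPM in siCtrl_EGF, against 67.2 and 69.6 CPM in siCtrl. Both EGF groups lay below both groups without EGF, siArid1a_EGF lay above siCtrl_EGF, and siArid1a and siCtrl overlapped. EGF lowered Pcdh15 2.23-fold with Arid1a siRNAs (log2 -1.16 ± 0.09, edgeR adjusted p = 2.96e-07). With control siRNA its level was 3.96-fold lower with EGF (log2 -1.99 ± 0.10, not tested). Between the siRNAs, its level was 1.91-fold higher with the Arid1a siRNAs in the presence of EGF (log2 0.93 ± 0.09), and the log2 change without EGF was 0.11 ± 0.09, both with no test. The EGF responses differed by 0.83 ± 0.13 on the log2 scale, again with no test.

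Dusp6, a phosphatase gene that ERK signalling induces and that served as the check of EGF, responded less to EGF with the Arid1a siRNAs. Dusp6 averaged 84.8 ± 2.42 CPM in siArid1a_EGF and 19.1 ± 0.472 CPM in siArid1a (SD, n = 3 each), against 142 ± 9.39 CPM in siCtrl_EGF (n = 3) and 16.8 ± 2.01 CPM in siCtrl (n = 2). Its EGF responses differed by a log2 value of -0.94 ± 0.11 (edgeR adjusted p = 0.00149). Its part in the values of Pcdh8 and Pcdh15 was not tested.

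Pcdh1 encodes a protocadherin known from airway epithelium. It was scarce, with 18 to 71 reads per library. It stood at 5.00, 2.85 and 4.01 CPM in siArid1a_EGF and at 1.96, 3.26 and 3.13 CPM in siArid1a, against 3.04, 1.85 and 2.54 CPM in siCtrl_EGF and 0.910 and 2.08 CPM in siCtrl. The libraries of the groups overlapped in each of the 4 comparisons. The Arid1a siRNAs without EGF raised it 2.0-fold (log2 1.0 ± 0.37, edgeR adjusted p = 0.0437). That call rests on single libraries, since the log2 change was 0.46 without siCtrl replicate 1 (edgeR adjusted p = 0.419) and 1.63 without siCtrl replicate 2, and the adjusted p was 0.142 without siArid1a replicate 2, 0.0965 without siArid1a replicate 3, 0.0576 without siCtrl_EGF replicate 3 and 0.0579 without siArid1a_EGF replicate 3.

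With EGF the log2 change of Pcdh1 was 0.69 ± 0.29 (edgeR adjusted p = 0.0607). It passed the test without siArid1a_EGF replicate 2 (log2 0.88, edgeR adjusted p = 0.0227), without siCtrl replicate 1 (0.0312) and without siCtrl replicate 2 (0.0320). With the replicate number as a block the adjusted p of Pcdh1 was 0.101 over all libraries and 0.00108 in a fit of siArid1a_EGF and siCtrl_EGF alone (log2 0.68), which was added after seeing the data and has few residual degrees of freedom. EGF gave it a log2 change of 0.48 ± 0.28 with Arid1a siRNAs (edgeR adjusted p = 0.250) and of 0.79 ± 0.37 with control siRNA (not tested), the second being 0.23 without siCtrl replicate 1 and 1.42 without siCtrl replicate 2. Pcdh7, another protocadherin of the same branch, had 1 read in siCtrl_EGF replicate 2, 1 read in siCtrl replicate 1 and none in the other 9 libraries. A count of 0 allows up to 3 reads, which is 0.184 to 0.280 CPM in these libraries by counting error alone.

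Cdh1 encodes E-cadherin, the main adhesion protein of epithelial junctions. It stood at 718, 678 and 686 CPM in siArid1a_EGF and at 807, 794 and 739 CPM in siArid1a, against 366, 375 and 343 CPM in siCtrl_EGF and 418 and 400.3 CPM in siCtrl. Every library with Arid1a siRNAs lay above every library with control siRNA. The Arid1a siRNAs raised Cdh1 1.92-fold with EGF (log2 0.94 ± 0.05, edgeR adjusted p = 9.59e-09) and 1.91-fold without EGF (log2 0.93 ± 0.06, edgeR adjusted p = 7.09e-08). EGF lowered it 1.12-fold with Arid1a siRNAs (log2 -0.17 ± 0.05, edgeR adjusted p = 0.0304), and the level was 1.13-fold lower with EGF and control siRNA (log2 -0.18 ± 0.06, not tested). The call for EGF with Arid1a siRNAs was lost without siArid1a replicate 1 (adjusted p = 0.0969), siArid1a replicate 2 (0.0853), siArid1a_EGF replicate 2 (0.0888) or siArid1a_EGF replicate 3 (0.0874). The EGF responses differed by 0.01 ± 0.08 (edgeR adjusted p = 0.993).

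Cdh2 encodes N-cadherin. It stood at 115, 101 and 117 CPM in siArid1a_EGF and at 80.8, 90.2 and 78.4 CPM in siArid1a, against 132, 122 and 127 CPM in siCtrl_EGF and 85.5 and 92.7 CPM in siCtrl. The EGF groups lay above the groups without EGF. EGF raised Cdh2 1.34-fold with Arid1a siRNAs (log2 0.42 ± 0.07, edgeR adjusted p = 0.000742), and its level was 1.43-fold higher with EGF and control siRNA (log2 0.51 ± 0.08, not tested). The EGF responses differed by -0.10 ± 0.11 (edgeR adjusted p = 0.883).

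The Arid1a siRNAs lowered Cdh2 1.14-fold with EGF (log2 -0.19 ± 0.07, edgeR adjusted p = 0.0365). This call was lost with the replicate number as a block (log2 -0.19, edgeR adjusted p = 0.0710). It was also lost without siArid1a_EGF replicate 2 (log2 -0.13, adjusted p = 0.161), siCtrl_EGF replicate 1 (0.127), siCtrl_EGF replicate 3 (0.0825) or siArid1a replicate 1 (0.0642). Without EGF the log2 change was -0.10 ± 0.08 (edgeR adjusted p = 0.373).

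Cdh2 relative to Cdh1 is often used to describe the balance of the cadherins. For every 100 Cdh1 reads there were 16.0, 14.9 and 17.1 Cdh2 reads in siArid1a_EGF and 10.0, 11.4 and 10.6 in siArid1a, against 36.1, 32.5 and 37.1 in siCtrl_EGF and 20.5 and 23.2 in siCtrl. The groups did not overlap, and both groups with Arid1a siRNAs lay below both groups with control siRNA. The mean log2 ratio changed by -1.14 with the Arid1a siRNAs in the presence of EGF and by -1.03 in its absence, and by 0.59 with EGF in cells with Arid1a siRNAs. An exact two-sided permutation test gave p = 0.1 in each of these 3 comparisons, the smallest value that their library numbers allow. Reads here are not divided by transcript length, so the ratio compares libraries and not the amounts of both RNAs.

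**Figure D3:**
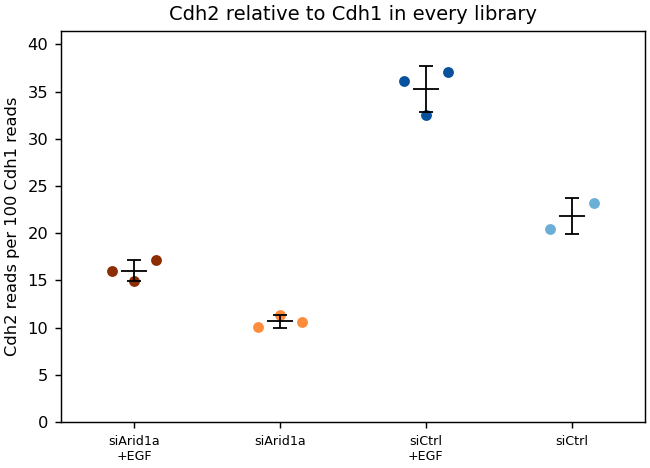
Cdh2 reads per 100 Cdh1 reads (y axis, from 0) in every library of siArid1a with EGF, siArid1a, siCtrl with EGF and siCtrl (x axis). Points are libraries and bars the mean ± SD, which is 16.0 ± 1.09, 10.7 ± 0.675, 35.2 ± 2.43 and 21.8 ± 1.90 in this order. Both Arid1a siRNA groups lie below both control siRNA groups.

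Epcam encodes an adhesion molecule of epithelial cells that is not a cadherin. It stood at 36.3, 46.7 and 32.0 CPM in siArid1a_EGF and at 34.6, 32.3 and 34.8 CPM in siArid1a, against 33.2, 39.2 and 35.4 CPM in siCtrl_EGF and 33.9 and 26.5 CPM in siCtrl. All groups overlapped. Its log2 change was 0.18 ± 0.13 for EGF with Arid1a siRNAs (edgeR adjusted p = 0.327), 0.09 ± 0.12 for the Arid1a siRNAs with EGF (0.562) and 0.16 ± 0.14 without EGF (0.415). For EGF with control siRNA it was 0.25 ± 0.14, with no test.

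Ctnnd1 encodes p120-catenin, which binds the cadherin tail next to the membrane and keeps cadherins at the surface. It stood at 145, 127 and 147 CPM in siArid1a_EGF and at 136, 135 and 119.5 CPM in siArid1a, against 203, 181 and 191 CPM in siCtrl_EGF and 163 and 186 CPM in siCtrl. Every library with Arid1a siRNAs lay below every library with control siRNA, which is the reverse of Cdh1. The Arid1a siRNAs lowered Ctnnd1 1.37-fold with EGF (log2 -0.45 ± 0.07, edgeR adjusted p = 0.000175) and 1.34-fold without EGF (log2 -0.42 ± 0.08, edgeR adjusted p = 0.00108). Its log2 change with EGF was 0.10 ± 0.08 with Arid1a siRNAs (edgeR adjusted p = 0.367) and 0.13 ± 0.08 with control siRNA (not tested).

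Ctnnb1 encodes beta-catenin. It stood at 1037, 970.2 and 1019 CPM in siArid1a_EGF and at 1087, 1141 and 1086 CPM in siArid1a, against 1094, 1032 and 1081 CPM in siCtrl_EGF and 1219.7 and 1304 CPM in siCtrl. The siCtrl libraries were the highest, and the other 9 lay between 970.2 and 1141 CPM. The Arid1a siRNAs without EGF lowered Ctnnb1 1.14-fold (log2 -0.19 ± 0.05, edgeR adjusted p = 0.0123), and it no longer passed without siCtrl replicate 2 (log2 -0.14, edgeR adjusted p = 0.122) or without siArid1a replicate 1 (log2 -0.17, edgeR adjusted p = 0.0577). With EGF the log2 change of Ctnnb1 was -0.08 ± 0.05 (edgeR adjusted p = 0.177). With the replicate block the adjusted p was 0.225 over all libraries and 0.00525 in the added fit of these 2 groups alone. EGF gave it -0.13 ± 0.05 with Arid1a siRNAs (edgeR adjusted p = 0.0672, and 0.0499 without siArid1a replicate 3), and -0.24 ± 0.05 with control siRNA (not tested).

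Ctnna1 encodes alpha-catenin. It stood at 174, 174 and 181 CPM in siArid1a_EGF and at 186, 176 and 175 CPM in siArid1a, against 183, 179 and 191 CPM in siCtrl_EGF and 192 and 199 CPM in siCtrl. From the lowest to the highest library its level differed 1.15-fold, the narrowest range of the 9 genes. Its log2 change was -0.02 ± 0.05 for EGF with Arid1a siRNAs (edgeR adjusted p = 0.795), -0.06 ± 0.05 for the Arid1a siRNAs with EGF (0.317) and -0.13 ± 0.06 without EGF (0.0909). For EGF with control siRNA it was -0.08 ± 0.06, with no test.

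Of the 7 genes whose EGF responses could be compared by a test, all but Pcdh8 and Pcdh15, none was called by edgeR as responding differently with Arid1a siRNAs and with control siRNA, where 0.944% of all genes were (0.562% with a positive and 0.382% with a negative difference). None of the 7 had an unadjusted p under 0.05 in edgeR (the lowest was 0.163), and DESeq2 and limma-voom called 0. The log2 differences ran from -0.31 ± 0.47 for Pcdh1 to 0.11 ± 0.07 for Ctnnb1.

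Levels of different genes were compared per transcript length, in FPKM, the authors' values of fragments scaled by transcript length and by depth, for the 3 groups whose columns could be matched. Ctnnb1 was highest, at 273 FPKM in siArid1a_EGF, 302 in siArid1a and 290.1 in siCtrl_EGF on average. Cdh1 came next, at 149, 168 and 77.6 FPKM in the same groups, and Ctnna1 after it at 45.7, 46.6 and 47.9 FPKM. Ctnnd1, Cdh2 and Epcam formed a middle tier at 25.4 ± 1.97, 22.6 ± 1.76 and 18.6 ± 3.67 FPKM in siArid1a_EGF (SD, n = 3), where neighbours in this order overlapped.

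In siCtrl_EGF Ctnnd1 averaged 35.0 ± 2.1, Cdh2 25.8 ± 1.17 and Epcam 17.4 ± 1.43 FPKM, and these did not overlap. Pcdh8 averaged 8.99 FPKM in siArid1a_EGF, 23.6 in siArid1a and 4.55 in siCtrl_EGF, and in siArid1a its libraries overlapped those of Ctnnd1, at 23.9 FPKM. Cdh2 and Epcam overlapped there too. Pcdh15 averaged 3.41, 7.57 and 1.81 FPKM and Pcdh1 0.966, 0.682 and 0.606 FPKM in the same order of groups.

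**Figure D4:**
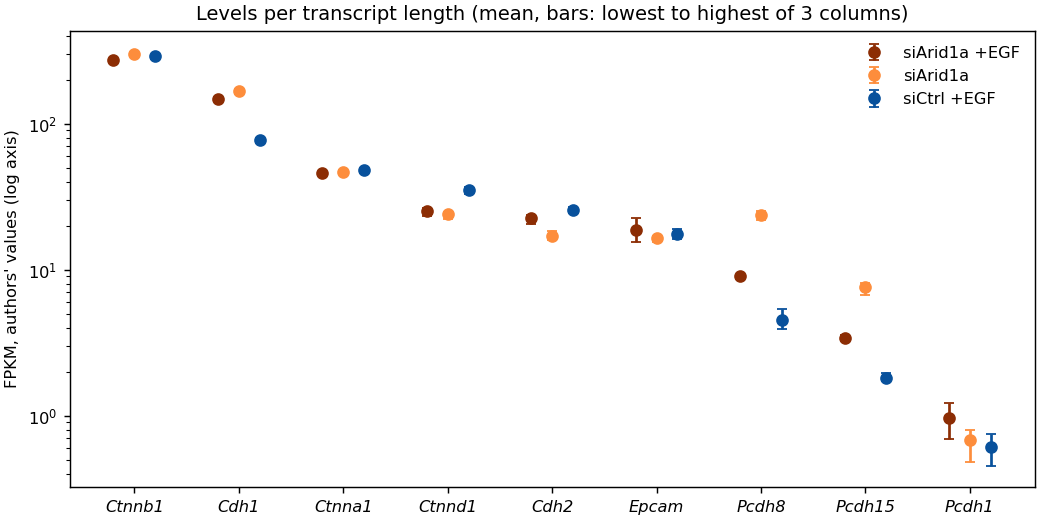
Mean level per transcript length of the 9 genes (x axis), as the authors' FPKM on a log axis (y axis), in siArid1a with EGF, siArid1a and siCtrl with EGF. Bars run from the lowest to the highest of 3 columns. Ctnnb1 and Cdh1 lead in each group, and Pcdh8, Pcdh15 and Pcdh1 are last in both EGF groups.

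The genes whose pattern was nearest to that of the protocadherins were found by the root mean square difference of log2 CPM, each gene centred on its own mean, over the 11 libraries and 9462 genes. Nearest to Pcdh8 were Grhl3, a transcription factor of epithelial barriers (difference 0.260), the apolipoprotein L gene Apol7a (0.293) and Pcdh15 itself (0.295). Nearest to Pcdh15 were Prss23, a serine protease (0.0983), Stom, which encodes the membrane protein stomatin (0.205), and Apol7a (0.205). Nearest to Pcdh1 were Cspg4, a membrane proteoglycan (0.228), the Notch ligand gene Jag2 (0.247) and the ephrin receptor gene Epha8 (0.264).

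Prss23 averaged 31.1 ± 1.0 CPM in siArid1a_EGF, 70.2 ± 2.05 in siArid1a and 17.2 ± 0.855 in siCtrl_EGF (SD, n = 3 each), against 62.8 ± 3.39 in siCtrl (n = 2). Pcdh15 averaged 33.0 ± 1.46, 73.6 ± 8.03, 17.2 ± 1.45 and 68.4 ± 1.71 CPM in the same groups. Grhl3 averaged 21.2 ± 1.23 CPM in siArid1a_EGF, 52.5 ± 2.34 in siArid1a and 14.4 ± 2.52 in siCtrl_EGF, against 72.1 ± 8.42 in siCtrl. These genes were picked for their likeness, which is given with no test.

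**Figure D5:**
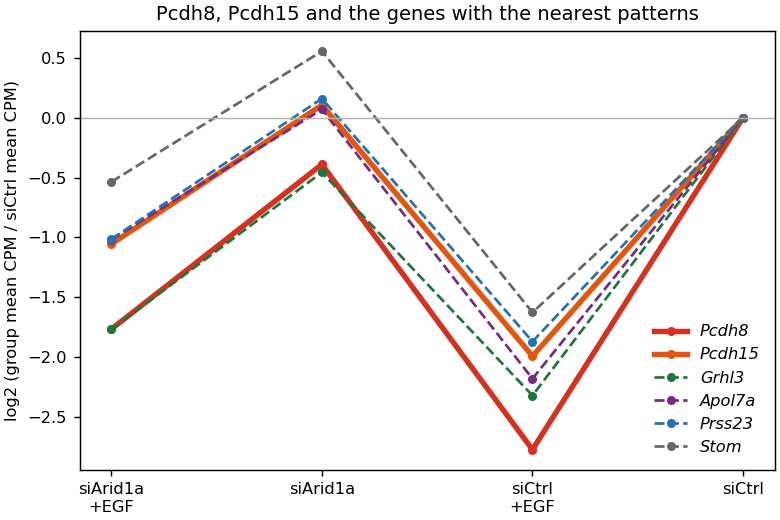
Group means of Pcdh8, Pcdh15 and the 4 other genes nearest to them, as log2 of the group mean CPM over the siCtrl mean CPM (y axis), in siArid1a with EGF, siArid1a, siCtrl with EGF and siCtrl (x axis, siCtrl at 0). Each line joins the means of 1 gene and has no order in time. All 6 genes are lowest in siCtrl with EGF, and Grhl3 and Pcdh8 lie below 0 in siArid1a while the other 4 lie above it.

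Other genes of cell adhesion were taken from 8 lists of 180 symbols, of which 167 were in the table and 110 were tested. With EGF the Arid1a siRNAs raised 21 and lowered 23 of the 110, and without EGF they raised 11 and lowered 20. EGF with Arid1a siRNAs raised 11 and lowered 15, and EGF with control siRNA raised 13 and lowered 22, where 35.6% of all genes were called (16.8% higher and 18.8% lower). Over all genes 46.9%, 38.9%, 23.4% and 35.6% were called in these comparisons, in this order. The counts of each list below stand beside the same shares. In each comparison the share of the 110 was below that of all genes or near it. The median log2 change of the 110 was -0.06, -0.12, -0.02 and -0.07 in these 4 comparisons, beside 0.00, -0.01, -0.01 and -0.03 over all genes.

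Desmosomes join cells through the desmosomal cadherins and their plaque proteins. Of 15 listed genes 7 were tested; 2 rose and 2 fell with the Arid1a siRNAs and EGF, and 1 rose and 2 fell without EGF. Dsg2, a desmosomal cadherin, averaged 43.1 ± 2.21 CPM in siArid1a_EGF and 59.4 ± 11.1 CPM in siArid1a (SD, n = 3 each), against 116 ± 6.10 CPM in siCtrl_EGF (n = 3) and 165 ± 2.40 CPM in siCtrl (n = 2). It fell 2.69-fold with EGF (log2 -1.43 ± 0.10, edgeR adjusted p = 8.07e-08) and 2.77-fold without EGF (log2 -1.47 ± 0.11, edgeR adjusted p = 2.28e-07). Dsp, the plaque protein that holds keratin filaments, fell with log2 changes of -0.60 ± 0.12 and -0.78 ± 0.12. Jup, encoding plakoglobin, a relative of beta-catenin in both kinds of junction, rose by 0.22 ± 0.05 and 0.27 ± 0.06. Dsg2 was the 1 gene of the 7 to fall with EGF and Arid1a siRNAs (log2 -0.46 ± 0.10, edgeR adjusted p = 0.00522), and none rose. With EGF and control siRNA 2 of the 7 rose and 2 fell, Dsg2 among the falls (log2 -0.50 ± 0.10).

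Of 18 tested classical and atypical cadherins other than Cdh1 and Cdh2, 5 rose and 3 fell with the Arid1a siRNAs and EGF, and 1 rose and 3 fell without EGF. Cdhr2, a cadherin of the brush border, rose in both (log2 2.94 ± 0.26 and 2.25 ± 0.23), at a low level of 3.97 ± 0.399 CPM in siArid1a_EGF and 5.17 ± 0.856 CPM in siArid1a, against 0.501 ± 0.162 CPM in siCtrl_EGF and 1.10 ± 0.0595 CPM in siCtrl. Clstn3, a calsyntenin known from synapses, fell in both (log2 -0.46 ± 0.05 and -0.58 ± 0.06). Dchs1, a large cadherin of planar cell polarity, fell in both too (log2 -0.98 ± 0.14 and -0.52 ± 0.18), and Cdh22 fell without EGF (log2 -0.23 ± 0.07) and had -0.11 ± 0.07 with EGF (edgeR adjusted p = 0.180). EGF with Arid1a siRNAs raised 3, among them Cdh22 (log2 0.53 ± 0.07), and lowered 3, among them Cdh20 (log2 -0.79 ± 0.15) and the scarce Cdhr1 (log2 -1.75 ± 0.34). With control siRNA EGF raised 4, among them Cdh22 (log2 0.41 ± 0.07). It lowered 5, among them Cdh20 (log2 -1.25 ± 0.16) and Cdhr1 (log2 -1.47 ± 0.34).

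Among other non-clustered protocadherins 3 of 8 were tested. Pcdh10 fell with EGF and Arid1a siRNAs (log2 -0.90 ± 0.13, edgeR adjusted p = 0.000136) and rose with the Arid1a siRNAs in the presence of EGF (log2 0.49 ± 0.14, edgeR adjusted p = 0.00996). With EGF and control siRNA Pcdh10 fell too (log2 -1.16 ± 0.14, edgeR adjusted p = 2.06e-05). Its levels were 9.50 ± 1.04 CPM in siArid1a_EGF, 17.7 ± 2.12 CPM in siArid1a and 6.79 ± 0.672 CPM in siCtrl_EGF, against 15.2 ± 2.08 CPM in siCtrl. Pcdh18 fell with the Arid1a siRNAs with EGF (log2 -0.64 ± 0.17) and without EGF (log2 -0.65 ± 0.17). Of 38 tested clustered protocadherins, 2 rose and 7 fell with the Arid1a siRNAs and EGF, 3 rose and 3 fell without EGF, and 1 rose and 5 fell with EGF and Arid1a siRNAs. Pcdhb20 rose in both Arid1a comparisons (log2 0.53 ± 0.10 and 0.30 ± 0.10), and Pcdhb5 had the smallest p among the falls with EGF and Arid1a siRNAs (log2 -0.42 ± 0.07). With EGF and control siRNA 1 of the 38 rose and 5 fell, Pcdhb5 among the falls (log2 -0.63 ± 0.08). Clustered protocadherins are near copies or share exons, so values of single members are uncertain.

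Of 18 tested catenins and linkers of adherens junctions other than the 3 above, 7 rose and 3 fell with the Arid1a siRNAs and EGF, and 3 rose and 5 fell without EGF. Ajap1, a membrane protein of adherens junctions, fell (log2 -0.70 ± 0.10 and -1.10 ± 0.10), and Lima1, which binds actin and alpha-catenin, rose (log2 0.46 ± 0.06 and 0.47 ± 0.06). Camsap3, which anchors microtubules at these junctions, rose in both as well (log2 0.50 ± 0.09 and 0.42 ± 0.10). Pvrl3, the cell adhesion molecule nectin-3, averaged 120.4 ± 2.0 CPM in siArid1a_EGF and 179 ± 3.62 CPM in siArid1a, against 128 ± 1.38 CPM in siCtrl_EGF and 228 ± 7.88 CPM in siCtrl. It fell with EGF and Arid1a siRNAs (log2 -0.57 ± 0.05, edgeR adjusted p = 1.15e-06), where 3 of the 18 rose, among them Pvrl2 (log2 0.34 ± 0.06), and 2 fell, the other being Plekha7 (log2 -0.44 ± 0.10). With EGF and control siRNA 2 of the 18 rose, Pvrl2 among them (log2 0.24 ± 0.07). In that comparison 5 fell, among them Pvrl3 (log2 -0.83 ± 0.05) and Plekha7 (log2 -0.61 ± 0.11). Without EGF the Arid1a siRNAs lowered Pvrl3 too (log2 -0.35 ± 0.05).

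Of 11 tested genes for the cleavage and turnover of cadherins, 2 rose and 2 fell with the Arid1a siRNAs and EGF, and 2 rose and 1 fell without EGF. Arf6, a GTPase of E-cadherin endocytosis, fell (log2 -0.53 ± 0.06 and -0.74 ± 0.06), while the metalloprotease gene Adam15 (0.52 ± 0.06 and 0.48 ± 0.07) and the proprotein convertase gene Furin (0.50 ± 0.07 and 0.43 ± 0.08) rose. With EGF and control siRNA, where edgeR called 35.6% of all genes, it called 0 of the 11, with 3 at an unadjusted p under 0.05. DESeq2 and limma-voom also called 0.

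Of 3 tested partners of Epcam, Tspan8 fell with the Arid1a siRNAs with EGF (log2 -1.20 ± 0.25) and without EGF (log2 -1.88 ± 0.36), at a mean of 0.562 to 3.28 CPM per group. With EGF and Arid1a siRNAs Tspan8 (log2 1.37 ± 0.37) and Cd44 (log2 0.35 ± 0.11) rose. Both also rose with EGF and control siRNA (log2 0.69 ± 0.25 and 0.42 ± 0.12, edgeR adjusted p = 0.0486 and 0.0120). Cd44, the hyaluronan receptor, fell with the Arid1a siRNAs and EGF (log2 -0.28 ± 0.11).

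Of 12 tested transcription factors and splicing regulators tied to Cdh1 and the epithelial state, 2 rose and 3 fell with the Arid1a siRNAs and EGF, and 1 rose and 4 fell without EGF. Zeb1, a repressor of Cdh1, fell with EGF (log2 -0.60 ± 0.12, edgeR adjusted p = 0.000732), with means of 36.6 ± 4.07 CPM in siArid1a_EGF and 55.7 ± 6.20 CPM in siCtrl_EGF, and had -0.33 ± 0.13 without EGF (edgeR adjusted p = 0.0659). Snai1, another repressor of Cdh1, rose without EGF (log2 0.61 ± 0.18, edgeR adjusted p = 0.0141), with means of 6.02 ± 0.922 CPM in siArid1a and 3.94 ± 0.50 CPM in siCtrl. The splicing factor genes of epithelial cells Esrp1 (log2 -0.92 ± 0.24, with EGF) and Esrp2 (log2 -0.44 ± 0.14, without EGF) fell. EGF with Arid1a siRNAs raised Snai1 (log2 0.64 ± 0.14) and lowered Grhl3 (log2 -1.31 ± 0.11) and Elf3 (log2 -0.69 ± 0.08), both factors of epithelial cells. With control siRNA too, EGF raised Snai1 (log2 1.04 ± 0.17) and lowered Grhl3 (log2 -2.31 ± 0.12) and Elf3 (log2 -1.01 ± 0.09).

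Markers of other cell types also moved between groups. The summed level of 6 duct markers was 64.5 to 70.4 CPM in siArid1a_EGF, 52.9 to 56.9 CPM in siArid1a, 110.1 to 121 CPM in siCtrl_EGF and 55.4 to 78.2 CPM in siCtrl, and 5 of the 6 were tested. Sox9 made up most of this sum, at 38.6 to 105 CPM over all libraries, while Krt19, Krt7 and Muc1 stayed at or under 2.15 CPM. That of 9 fibroblast and stellate markers was 769 to 837 CPM, 755 to 767 CPM, 561 to 587 CPM and 587 to 611 CPM in these groups, with 8 of 9 tested and Lum at 0. Vim, at 253 to 518 CPM, and Pdgfrb, at 269 to 321 CPM over all libraries, made up most of that sum. The collagen genes Col1a1, Col1a2 and Col3a1 of this list stayed at or under 6.23 CPM in every library. Chga was the 1 islet marker tested of 5, and the summed level of that list was 794 to 839.8 CPM in siArid1a_EGF, 626 to 768 CPM in siArid1a, 1112 to 1158 CPM in siCtrl_EGF and 701 to 752 CPM in siCtrl. Markers of neurons and glia, 3 of 5 tested, summed to 83.3 to 91.8 CPM, 95.5 to 99.8 CPM, 74.5 to 79.8 CPM and 89.6 to 93.0 CPM in the same order of groups. The part of these marker levels in the changes of the cadherins and catenins was not tested.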

How the data were processed

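RNA of 11 libraries was prepared with a kit that does not mark strand, so antisense reads cannot be told apart. Per the submitters' processing notes, TopHat2 2.1.1, HTSeq 0.9.1, Cuffnorm 2.2.1.2 and Cuffdiff 2.2.1.5 were used, with build mm9. The authors deposited raw read counts per gene symbol for each library, and a table of FPKM values whose scaling is not given in the sources used here. Of its columns, 9 were matched to 3 groups, while 3 columns of controls had no match among the 2 siCtrl libraries and were set aside. Annotation and counting settings are not given in the sources used here.

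The counts went into edgeR 4.0.16 (R 4.3.3). Its filterByExpr (minimum count 10, minimum total 15) left 13343 genes (57.3%), libraries were scaled with TMM factors, and 1 quasi-likelihood model with 4 group means was fitted over the 11 libraries (7 residual degrees of freedom, biological coefficient of variation 7.00%). Genes were called two-sided at a Benjamini-Hochberg adjusted p under 0.05 over all genes tested. The steps were tested on simulated data. DESeq2 1.42.0, limma-voom (limma 3.58.1), RLE factors, no filter, fits of only the groups compared and leaving out each library were alternatives. Pairs of libraries in a group differed beyond counting noise (chi-square per degree of freedom 1.57 to 10.9 over genes with at least 20 reads).

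Replicate numbers come from the sample titles. In siArid1a_EGF and siCtrl_EGF, deviations of the 3 same-number pairs from their group means correlated at 0.129 to 0.303, against -0.188 to 0.0650 for other pairs, so the numbers were taken to pair these groups. Deviations from a group mean cancel out within the group, so these ranges depend on each other and the pairing is an assumption.

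Text names the 10 genes in every comparison, of each other list the 3 called genes with the smallest p in a comparison (not all of them are printed), the 3 nearest patterns of Pcdh8, Pcdh15 and Pcdh1 among genes averaging 3 or more in log2 CPM, and Arid1a and Dusp6 as checks. The genes and lists were chosen with earlier results of these data known. Promoter sequences come from RefSeq (GRCm38.p6), in which 6 of the 10 genes matched, and Pcdh1, Cdh1, Cdh2 and Ctnna1 were not among them.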

Additional observations from a re-analysis of the deposited data

Results flagged for a closer look

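The EGF responses of Dusp6 and Grhl3 differed between cells with Arid1a siRNAs and cells with control siRNA. Dusp6 rose by 2.15 on the log2 scale with Arid1a siRNAs and by 3.08 with control siRNA, a difference of -0.94 ± 0.11 (edgeR adjusted p = 0.00149). Grhl3 had log2 changes of -1.31 with Arid1a siRNAs and -2.31 with control siRNA, a difference of 1.01 ± 0.16 (edgeR adjusted p = 0.00673). Both were flagged because the difference itself passed the test over all genes. Passing does not set them apart, since 126 of the 13343 genes tested passed (0.944%). Prss23 and Apol7a, picked for their likeness to Pcdh15 or Pcdh8, were among these. Grhl3 was also the gene nearest in pattern to Pcdh8, which was chosen on its EGF response with control siRNA.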

How the results depend on the processing

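Over all alternatives, 795 log2 changes of the 9 genes kept their direction and their side of the threshold, or, without a test, moved by less than the replicate spread. Another 21 lost a call, 8 gained one, 18 turned sign and 4 untested ones moved further. For Pcdh8 and Pcdh15 these totals include the changes between the siRNAs, from which no call is drawn here. The count of called genes among the 9 for Arid1a siRNAs without EGF was 3 when only the groups compared were fitted. Pcdh1 (edgeR adjusted p = 0.0551) and Ctnnb1 (0.0934) were lost there, and DESeq2 gave Pcdh1 0.0516. That count was 5 in the model of all libraries and 4 with the replicate block. It was 4 or 5 when 1 library of a group of 3 was left out. Each of these counts includes Pcdh8, which was selected in the same control libraries, so no conclusion is drawn from them. Of the 7 genes other than Pcdh8 and Pcdh15, 2 were higher and 2 lower in the model of all libraries. Over all genes 38.9% were called there. The number of genes whose EGF responses differed was 126, but 56 with the replicate block and 55 to 153 when 1 library was left out. The block also lost Pcdh1 without EGF (adjusted p = 0.0962) and changed no other tested call of the 9 genes than that of Cdh2 above. A fit of siArid1a_EGF and siCtrl_EGF alone with the block, added after seeing the data and with few residual degrees of freedom, called Pcdh1 (log2 0.68) and Ctnnb1 (log2 -0.08), as did fitting these groups without the block for Pcdh1 (adjusted p = 0.0287). In other pairs of groups, same-number correlations ran from -0.381 to 0.316. The main model assumed no pairing. The replicate block over all libraries gave all 4 groups the same replicate effects, so its values assume a pairing in those pairs of groups too.

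The difference of EGF responses of Cdh1 was -0.00617 with RLE factors, -0.0142 with no filter, -0.00624 with DESeq2 and -0.0167 with the block. Leaving out 1 library gave ranges of -0.0281 to 0.0401 for Cdh1, -0.256 to 0.0974 for Epcam, -0.127 to 0.0597 for Ctnnd1 and -0.939 to 0.244 for Pcdh1. Likewise Epcam ran from -0.0722 to 0.214 for the Arid1a siRNAs with EGF and from -0.00314 to 0.358 without EGF, and Ctnna1 from -0.0464 to 0.00116 for EGF with Arid1a siRNAs. For EGF with Arid1a siRNAs, Ctnnb1 was called by DESeq2 (adjusted p = 0.0426) and Cdh1 was not when only these groups were fitted (0.0529). The causes were not tested.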
